A study of Mus musculus with 25 samples.

Results

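Knockdown of Zeb2 was compared with control virus in cultured mouse astrocytes, in 4 of the 25 RNA sequencing libraries of a study of spinal cord injury. The 4 libraries are those of the cultures labelled Zeb2 knockdown (2) and of their own controls (2), chosen by these labels and not by any measured value. Both groups were primary astrocytes from the brains of C57BL/6 pups of postnatal day 4 to 7. Knockdown cultures were infected with a lentivirus against Zeb2 and control cultures with a control lentivirus, and both were selected with 1 µg/ml puromycin for 3 days, starting 48 h after infection. The labels give the genotype of the knockdown cultures as Zeb2 -/- and of the controls as WT, although the protocol describes a lentiviral knockdown in cells of 1 strain, so the cells are treated here as a knockdown. The labels do not say whether the libraries of a group came from separate cultures, so the spread behind each p-value may be partly or wholly technical.

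Zeb2 encodes a zinc-finger transcription factor that binds paired CACCT boxes, interacts with receptor-activated SMAD proteins and the CtBP corepressors, and mostly represses its targets. It is best known for repressing E-cadherin and other epithelial genes during epithelial to mesenchymal transition and for its part in neural crest, cortical and myelinating glial development. In astrocytes it is known as a factor induced by injury and needed for a full gliotic reaction. Zeb2os is a long non-coding RNA transcribed from inside the Zeb2 gene on the opposite strand.

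The knockdown libraries held 42.8 and 29.0 M gene counts, and the controls 65.4 and 50.2 M. Values below are CPM, counts per M of library total with the totals scaled by trimmed mean of M values, given as replicate 1 and then replicate 2, and log2 changes are knockdown over control with their standard error (SE). The knockdown libraries were the least alike of the 6 pairs: 30.1% of 17609 genes differed by more than 2-fold between them, against 11.8% between the controls. Knockdown replicate 2 and control replicate 2 differed by more than 2-fold at 12.5% of genes, close to the distance between the controls. Between the knockdown libraries the difference also ran with transcript length. Among genes with a mean of at least 5 CPM, those with the shortest transcripts (quintile of 148 to 2006 bases) were lower in replicate 1 than in replicate 2 by a median of -0.52 on the log2 scale, and those in the quintile of longest transcripts were higher by 0.60. The controls differed by -0.12 and 0.12 in the same quintiles, and the mean of the knockdown group minus that of the controls by 0.09 and -0.10. Summed ribosomal protein genes stood at 15190 and 34370 CPM in knockdown cultures, against 23690 and 26150 CPM in controls, so that the knockdown libraries lay on either side of both controls. Mitochondrial messenger RNAs stood at 15240 and 7280 CPM in knockdown cultures, against 12260 and 8130 CPM in controls, and the groups overlapped.

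**Figure D1:**
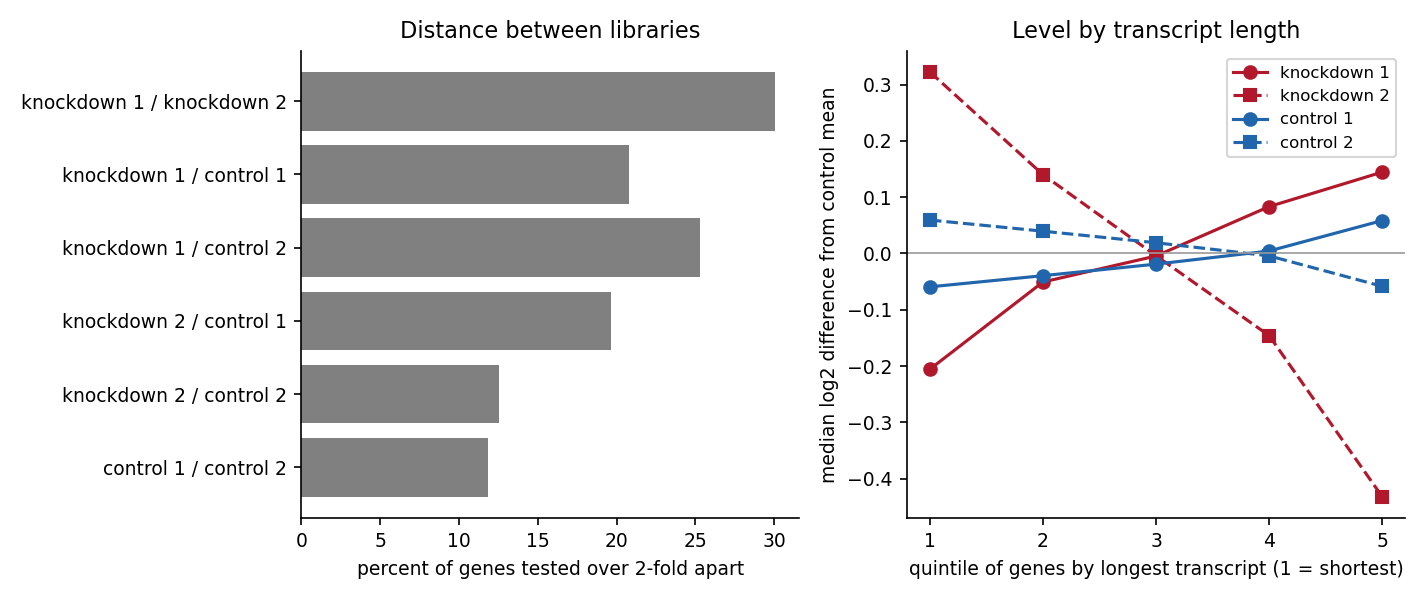
How the 4 libraries differ from each other. The plot gives the share of genes more than 2-fold apart for each pair of libraries and, for each library, the median log2 difference from the control mean by quintile of transcript length; the knockdown pair has the largest share, 30.1%, and the control pair the smallest, 11.8%.

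Zeb2 itself was far lower in the cultures labelled knockdown. It had 1080 and 471 counts, or 23.2 and 16.1 CPM, in knockdown cultures, against 9039 and 6534 counts, or 147 and 134 CPM, in controls. Both knockdown libraries lay below both controls by several times the spread within either group. The mean was 19.7 ± 5.01 CPM in knockdown cultures and 140.3 ± 9.44 CPM in controls (SD, n = 2 each), so that 14.0% of the control level was left, a 7.12-fold lower level and a log2 change of -2.83 (SE 0.33). The unadjusted p of edgeR's quasi-likelihood test was 0.000147, but its Benjamini-Hochberg adjusted p over 17609 genes was 0.999. DESeq2 gave Zeb2 an adjusted p of 2.72e-07. In an edgeR fit of all 8 culture libraries of the study, where the spread is estimated from 4 groups, the adjusted p for the same contrast was 0.0371. In edgeR fits that left out a single library the log2 change ran between -3.11 and -2.60.

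On chromosome 2 (GRCm38, the mm10 build, GENCODE M21), the minus-strand gene Zeb2 spans 44983632 to 45117395 and the plus-strand gene Zeb2os spans 45110707 to 45114087. Exons of the 2 genes share 653 bases, which is 32.8% of Zeb2os exon sequence and 3.27% of Zeb2 exon sequence. The library kit marks strand, but whether counting used it is not given in the sources used here, so reads in the shared stretch may have been counted for either gene. Zeb2os had 155 and 108 counts, or 3.33 and 3.70 CPM, in knockdown cultures, against 369 and 198 counts, or 6.00 and 4.05 CPM, in controls. Both knockdown libraries lay below both controls, with a log2 difference of -0.51 (SE 0.43, edgeR unadjusted p = 0.276), which did not pass the test. The ratio of Zeb2os counts to Zeb2 counts was 0.144 and 0.229 in knockdown cultures and 0.0408 and 0.0303 in controls.

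**Figure D2:**
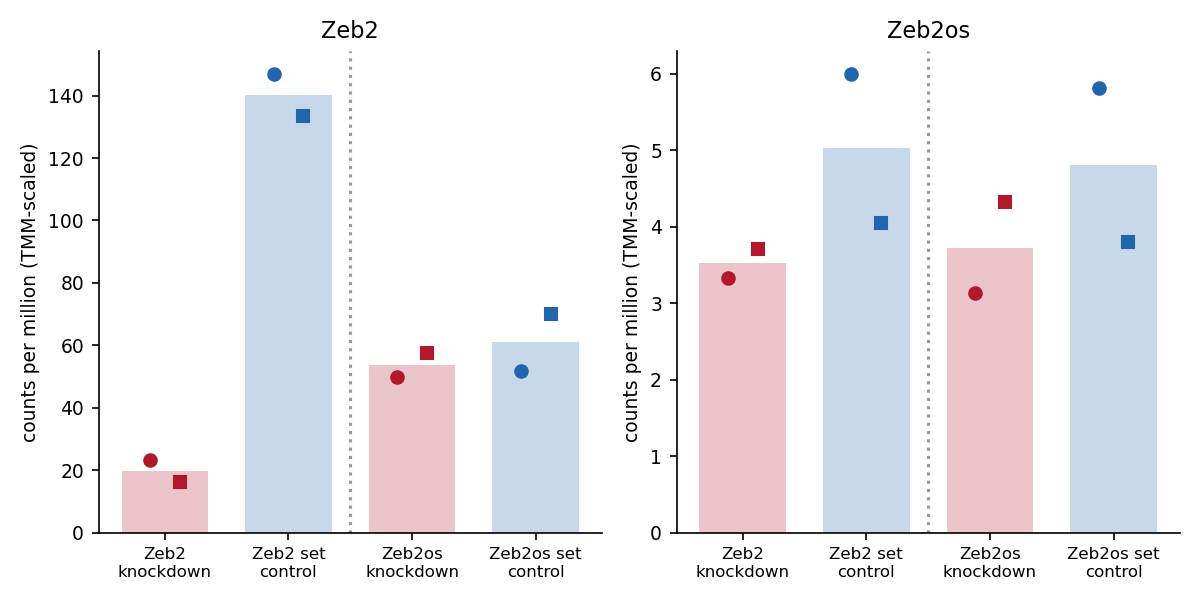
Zeb2 and Zeb2os in CPM in each culture library, knockdown left of control, in the Zeb2 set and in the Zeb2os set. Points are libraries and bars are means of 2; Zeb2 stood at 23.2 and 16.1 CPM in Zeb2 knockdown cultures, below 147 and 134 CPM in their controls, while the groups overlap for Zeb2 in the Zeb2os set.

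Across the transcriptome, the comparison asks which genes differ in astrocytes when Zeb2 is reduced. With edgeR, 0 of 17609 genes (0%) passed an adjusted p of 0.05, and 683 (3.88%) had an unadjusted p under 0.05. DESeq2 on the same counts called 33 of 18608 genes, 19 of them higher (0.102%) and 14 lower (0.0752%) in knockdown cultures, and gave 907 genes an unadjusted p under 0.05. Since edgeR called none of these 33 genes, they are described below as values. Both knockdown libraries lay above both controls at 2699 genes (15.3%) and below both at 2910 (16.5%). Without knockdown replicate 2 the edgeR count was 804 genes, 284 higher and 520 lower, although 1 library then stands for the knockdown and is assumed to vary like the controls. Leaving out knockdown replicate 1, control replicate 1 or control replicate 2 gave 2, 17 and 4 genes.

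The 33 genes were chosen after their values were seen. At all 33, both knockdown libraries lay outside both controls, and edgeR's log2 changes ran from -2.83 to -1.74 in the lower genes and from 1.84 upward in the higher ones. Many of the higher genes had few reads: 9 of the 19 stood under 1 CPM in every control. The lower genes had more reads, and 12 of the 14 stood above 10 CPM in both controls. Of the 31 with a gene model in the annotation, 28 were protein coding and 3 antisense. Exons of 13 of the 31 share bases with a gene on the other strand (Adam19, Adgra2, Bdh1, Ckmt1, Col9a3, Fbn1, Gm15743, Gm17180, Gm36569, Hrh3, Islr2, Itgav and Zeb2), and their values are uncertain without a stated strand setting. They are ordered below by what they encode, and no shared theme was tested. Without knockdown replicate 2, edgeR called 23 of them, without knockdown replicate 1 or control replicate 1 it called 1, and without control replicate 2 it called 0. The fold change of 9 of the 33 moved by 1.5-fold or more without knockdown replicate 1, of 5 without knockdown replicate 2, of 6 without control replicate 1 and of 3 without control replicate 2, and these genes' values are given with each.

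A pair of neighbouring carbonic anhydrase genes was among the higher genes. Car2, which encodes a cytosolic enzyme that interconverts carbon dioxide and bicarbonate, stood at 104 and 97.9 CPM in knockdown cultures, against 10.8 and 17.1 CPM in controls. The knockdown libraries were alike and both lay far above both controls, with a log2 change of 2.85 (SE 0.35) and a DESeq2 adjusted p of 2.72e-07. It was the only gene other than Zeb2 that passed in the edgeR fit of all 8 culture libraries (2 of 20685 genes, 0.00967%), with an adjusted p of 0.0371. Car3, which encodes the carbonic anhydrase of muscle and fat, lies 13.8 kb from Car2 on chromosome 3 (14863512 to 14872523, against 14886273 to 14900770 for Car2). It stood at 1.33 and 12.5 CPM in knockdown cultures, against 0.293 and 0.859 CPM in controls. Knockdown replicate 2 was far above the other 3 libraries, and its log2 change was 3.58 (SE 1.16). It was 1.21 without knockdown replicate 2, 4.46 without knockdown replicate 1, 3.00 without control replicate 1 and 4.56 without control replicate 2.

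Some of the higher genes encode secreted factors, receptors or a regulator of receptor signalling. Ndp, which encodes norrin, a ligand of Frizzled4 in retinal and brain vessels, stood at 17.6 and 17.7 CPM in knockdown cultures, against 5.38 and 2.78 CPM in controls. The knockdown libraries were nearly equal and both above the controls, and the log2 change was 2.11 (SE 0.44). Igfbpl1, a secreted protein related to the insulin-like growth factor binding proteins, stood at 36.0 and 26.8 CPM in knockdown cultures, against 3.50 and 7.91 CPM in controls, with both knockdown libraries above both controls (log2 2.46, SE 0.49, DESeq2 adjusted p = 0.00328). Calcb, which encodes the neuropeptide CGRP-beta, stood at 5.53 and 1.82 CPM in knockdown cultures, against 0.488 and 0.429 CPM in controls. Gpr50, an orphan receptor related to the melatonin receptors, stood at 17.9 and 6.31 CPM in knockdown cultures, against 2.00 and 1.53 CPM in controls, and its knockdown libraries differed more from each other than its controls did. Hrh3, the histamine H3 receptor, was near its floor in controls, with 2.09 and 1.71 CPM in knockdown cultures and 0.130 and 0.0409 CPM in controls. Its exons overlap those of Gm17180, an antisense gene with 51 and 20 counts in knockdown cultures and 0 counts in both controls, and the pair shares 349 bases, so the 2 values may not be independent. Rgs7, which speeds the shut-off of G protein signalling, stood at 19.8 and 12.4 CPM in knockdown cultures, against 3.09 and 5.15 CPM in controls, a log2 change of 1.97 (SE 0.45). Without knockdown replicate 1, Calcb was at a log2 change of 1.99, against 3.00 with all libraries, and Gpr50 at 1.84, against 2.77. Without control replicate 1 Hrh3 was at 5.44, against 4.40 with all libraries, and without control replicate 2 Igfbpl1 was at 3.17.

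The other named higher genes encode enzymes, a collagen chain, a junction protein and interferon-induced proteins. Bdh1, the mitochondrial enzyme that interconverts acetoacetate and beta-hydroxybutyrate, stood at 86.9 and 55.9 CPM in knockdown cultures, against 15.7 and 24.2 CPM in controls, a log2 change of 1.84 (SE 0.39). Its antisense neighbour Gm15743 shares 533 exon bases with it and was also called. Ckmt1, mitochondrial creatine kinase, stood at 14.3 and 6.75 CPM in knockdown cultures, against 1.93 and 2.35 CPM in controls. Col9a3, a chain of the cartilage collagen IX, stood at 34.0 and 9.39 CPM in knockdown cultures, against 4.78 and 1.64 CPM in controls, with knockdown replicate 1 far above the rest. Cldn4, a tight junction claudin of epithelia, stood at 2.43 and 1.41 CPM in knockdown cultures, against 0.146 and 0.225 CPM in controls, so that it was low in every library and higher in knockdown cultures (log2 3.36, SE 0.70). Rsad2, the antiviral protein viperin, stood at 12.7 and 3.39 CPM in knockdown cultures, against 1.11 and 1.49 CPM in controls. Ifi209, an interferon-inducible gene of the AIM2-like family, stood at 3.64 and 14.3 CPM in knockdown cultures, against 0.569 and 0.797 CPM in controls, and there replicate 2 was the higher knockdown library, the reverse of Rsad2. Islr2, Myh15 and Tmem28 were higher too, at log2 changes of 2.56, 3.32 and 2.81. Several of these moved when 1 library was left out: without knockdown replicate 1 the log2 change was 1.66 for Ckmt1, against 2.30 with all libraries, 1.56 for Col9a3, against 2.76, 1.39 for Rsad2, against 2.63, and 1.66 for Tmem28. Without knockdown replicate 2 these last 3 were at 3.39, 3.28 and 3.44. Ifi209 was at 4.39 without knockdown replicate 1 and at 2.40 without knockdown replicate 2, against 3.71 with all libraries. Without control replicate 1 Col9a3 was at 3.72 and Myh15 at 4.97, and without control replicate 2 Myh15 was at 2.60.

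Among the lower genes were some of adhesion, matrix and contractile fibres. Itgav, the integrin alpha V subunit that binds RGD motifs and releases latent TGF-beta, stood at 129 and 191 CPM in knockdown cultures, against 731 and 586 CPM in controls. Both knockdown libraries lay far below both controls, with a log2 change of -2.04 (SE 0.36) and a DESeq2 adjusted p of 0.00328. Fbn1, which encodes fibrillin-1, the microfibril protein that holds latent TGF-beta complexes in the matrix, stood at 159 and 234 CPM in knockdown cultures, against 812 and 527 CPM in controls (log2 -1.77, SE 0.39). Adam19, a membrane metalloprotease that sheds neuregulin, stood at 71.4 and 34.8 CPM in knockdown cultures, against 200.1 and 175 CPM in controls, a log2 change of -1.82 that was -2.42 without knockdown replicate 1. Lrrc15, a leucine-rich repeat membrane protein known from TGF-beta-activated fibroblasts, stood at 2.30 and 2.71 CPM in knockdown cultures, against 13.6 and 12.1 CPM in controls, with little spread in either group (log2 -2.36, SE 0.37). Thsd7a, a membrane protein with thrombospondin type-1 repeats, stood at 24.9 and 24.4 CPM in knockdown cultures, against 86.4 and 81.5 CPM in controls, and its SE of 0.28 on a log2 change of -1.77 was the smallest in this group.

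Hs6st2, which adds 6-O sulfate to heparan sulfate, stood at 17.8 and 17.3 CPM in knockdown cultures, against 71.0 and 45.9 CPM in controls, and Adgra2, an adhesion receptor that takes part in Wnt7 signalling at brain vessels, at 76.0 and 150.1 CPM in knockdown cultures, against 474 and 357 CPM in controls. Actg2, the gamma actin of smooth muscle, stood at 92.9 and 109 CPM in knockdown cultures, against 616 and 259 CPM in controls, where control replicate 1 was the highest library by far. Ldb3, a Z-disc protein of muscle, stood at 2.50 and 4.42 CPM in knockdown cultures, against 22.2 and 9.84 CPM in controls with the same order of libraries within the controls. Scara3, a scavenger receptor, stood at 12.3 and 14.2 CPM in knockdown cultures, against 61.5 and 34.1 CPM in controls. The remaining called genes, Gm36569, Gm32764 and CJ186046Rik, had log2 changes of -1.99, -2.44 and -2.23. For Actg2, Ldb3 and Scara3, leaving out control replicate 1 brought the log2 change to -1.36, -1.51 and -1.37.

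**Figure D3:**
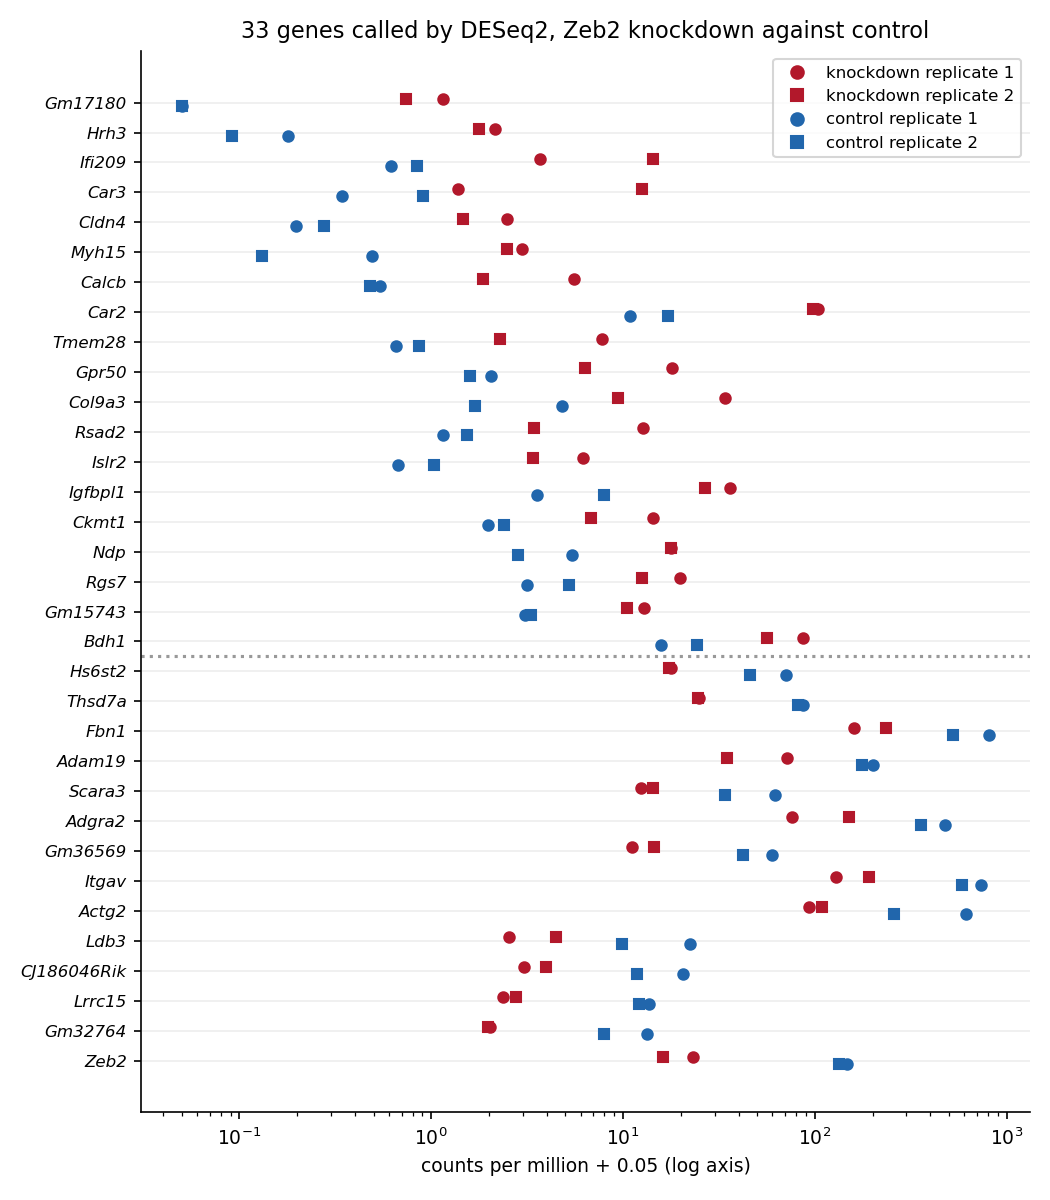
The 33 genes that DESeq2 called, as CPM + 0.05 on a log axis. Each point is a library, genes run down the page with the higher ones first, and at all 33 genes both knockdown points lie to the same side of both control points.

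The 6-letter core of the ZEB2 box, CACCTG or its reverse complement CAGGTG, was looked for in promoter windows of 300 bases (250 before to 50 after the start, RefSeq, GRCm38.p6, both strands). At least 1 window held it in 2618 of 12113 tested genes with a window (21.6%), and 20.2% of all 32851 windows did. Among the 33 called genes it stood in 2 of 13 higher genes with a window (15.4%) and in 1 of 9 lower genes other than Zeb2 (11.1%). Both shares were below that over all tested genes, from few genes. The windows of those 3 genes are printed so that the box can be read in place, in lower case with the box in capitals, each on the strand of its gene. They are Adam19 at chr11:46055734-46056033 (plus, the window over the start of the gene model, of 2 that hold the box), Cldn4 at chr5:134946885-134947184 (minus) and Rsad2 at chr12:26456403-26456702 (minus). The box starts at -135 in Adam19, at -14 and 11 in Cldn4 and at 14 in Rsad2, counted from the start site, and a match is a description and not a binding site.
Adam19: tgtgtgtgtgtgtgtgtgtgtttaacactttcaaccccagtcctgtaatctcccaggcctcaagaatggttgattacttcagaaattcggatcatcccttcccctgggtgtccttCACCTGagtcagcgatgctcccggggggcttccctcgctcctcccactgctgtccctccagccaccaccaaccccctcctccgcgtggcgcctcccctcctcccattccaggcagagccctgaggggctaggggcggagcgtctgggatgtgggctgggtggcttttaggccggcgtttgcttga
Cldn4: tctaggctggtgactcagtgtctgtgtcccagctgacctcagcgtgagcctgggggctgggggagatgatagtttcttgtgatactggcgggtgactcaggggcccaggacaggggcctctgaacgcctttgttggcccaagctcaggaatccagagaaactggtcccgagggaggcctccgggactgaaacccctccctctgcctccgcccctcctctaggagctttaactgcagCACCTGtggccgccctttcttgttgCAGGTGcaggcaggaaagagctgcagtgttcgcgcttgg
Rsad2: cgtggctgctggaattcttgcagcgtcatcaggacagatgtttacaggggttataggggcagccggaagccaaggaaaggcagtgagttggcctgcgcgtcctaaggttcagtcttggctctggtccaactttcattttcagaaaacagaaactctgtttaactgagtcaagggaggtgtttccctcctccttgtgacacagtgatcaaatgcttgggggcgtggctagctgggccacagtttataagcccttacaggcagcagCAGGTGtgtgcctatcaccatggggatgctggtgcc

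The other genes of each pathway were followed through lists of textbook members, 28 in all, chosen with earlier results of these data known. The edgeR test called 0 members of any list, so each is given by its median log2 change, by how many members lay above or below both controls in both knockdown libraries, and beside the same over all genes tested, where the median was 0.03 and the shares 15.3% above and 16.5% below. Members with most reads in their list are named, and further members were chosen after their values were seen. Since these are bulk cultures, fewer cells of a type and less RNA per cell cannot be told apart.

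Of 18 genes of the Zeb2 family and its reported targets and partners, 6 lay above both controls and 2 below. Those below were Zeb2 itself, the targeted gene, and Sfrp1. The median was 0.13, and it was 0.00 without knockdown replicate 2 and 0.35 without knockdown replicate 1. Zeb1, the paralogue of Zeb2, stood at 142 and 122 CPM in knockdown cultures, against 128 and 115 CPM in controls, and the groups overlapped. Id1, Id2 and Id3, inhibitors of basic helix-loop-helix factors that BMP signalling induces, were above both controls in both knockdown libraries. Id1 stood at 168 and 301 CPM in knockdown cultures, against 124 and 149.9 CPM in controls. Id2 stood at 187 and 127 CPM in knockdown cultures, against 89.9 and 66.8 CPM in controls, and Id3 at 349 and 418 CPM in knockdown cultures, against 299 and 236 CPM in controls. Sox2, a stem cell and glial factor, stood at 264 and 169 CPM in knockdown cultures, against 123 and 148 CPM in controls, and Sfrp1, a secreted Wnt antagonist, lay below both controls at 45.5 and 64.3 CPM in knockdown cultures, against 125 and 88.6 CPM in controls. Cdh1, which encodes E-cadherin, was under 1 CPM in every library (0.237 and 0.686 in knockdown cultures, 0.374 and 0.552 in controls), and the groups overlapped.

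Of 26 epithelial and mesenchymal genes, 20 were tested, and 4 lay above and 2 below both controls, with a median of -0.11 that was above 0 without knockdown replicate 1 (0.04) or control replicate 2 (0.04). The groups overlapped at the other 14 tested members, and over all genes 15.3% lay above and 16.5% below both controls. The 4 above were epithelial: Cldn4, Ocln, Krt8 and Krt18, all low. Epithelial and mesenchymal members were not counted apart, so these 4 do not stand for the epithelial genes as a set. Krt18, a keratin of simple epithelia, stood at 1.36 and 1.10 CPM in knockdown cultures, against 0.260 and 0.470 CPM in controls, and Krt8, its partner, at 0.753 and 0.720 CPM in knockdown cultures, against 0.163 and 0.102 CPM in controls. The 2 below were Cdh11, a mesenchymal cadherin, at 67.0 and 93.7 CPM in knockdown cultures, against 231 and 178 CPM in controls, and Snai1. Snai1, which represses epithelial genes during epithelial to mesenchymal transition, stood at 5.96 and 9.19 CPM in knockdown cultures, against 18.7 and 11.8 CPM in controls. Vim and Fn1 had the most reads: Vim, the intermediate filament vimentin, stood at 5424 and 9499 CPM in knockdown cultures, against 5366 and 7159.7 CPM in controls, and Fn1, fibronectin, at 9628 and 4661 CPM in knockdown cultures, against 11020 and 5327 CPM in controls. In both the groups overlapped, and the replicates of a group differed more than the groups did.

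In the TGF-beta and BMP list of 34 genes the median was -0.00, with 5 genes above and 5 below both controls (14.7% each), near the shares over all genes. The 5 above were Id1, Id2, Id3, Id4 and Bambi, a pseudoreceptor of the pathway. Id4 stood at 113 and 105 CPM in knockdown cultures, against 51.7 and 63.9 CPM in controls. Among the 5 below were Ltbp2, Bmpr2, Grem1 and Inhba. Grem1, a secreted BMP antagonist, stood at 11.3 and 32.9 CPM in knockdown cultures, against 78.3 and 57.7 CPM in controls. Ccn2, a matricellular TGF-beta target, stood at 432 and 1804 CPM in knockdown cultures, against 1596 and 1919.5 CPM in controls, with knockdown replicate 1 low and replicate 2 within the controls.

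Matrix and adhesion lists leaned lower. Several of them also held long transcripts, against a median of 3197 bases over all genes tested. That median was 7150.5 for proteoglycans and tenascins, 6270.5 for collagens, 6118.5 for axon guidance and 5370 for integrins, but 3320 for proteases. With transcript length offsets the median log2 changes were -0.36, -0.18, -0.02, -0.25 and -0.34 in that order. The part of transcript length in these lists was not tested. Of 18 tested chondroitin sulfate proteoglycan and tenascin genes, 8 lay below both controls and 2 above, with a median of -0.42 that stayed between -0.58 and -0.37 when any 1 library was left out. Ncan, the neural proteoglycan neurocan, stood at 668 and 871 CPM in knockdown cultures, against 1502 and 974 CPM in controls, and Tnc, tenascin-C, at 1410.4 and 2349 CPM in knockdown cultures, against 4015 and 3141 CPM in controls. Cspg4, the NG2 proteoglycan, stood at 49.2 and 114 CPM in knockdown cultures, against 216 and 234 CPM in controls. Summed over the list, the level was 3656 and 4221 CPM in knockdown cultures, below 7871 and 5709 CPM in controls. Bcan and Hapln1, parts of the perineuronal matrix, were the 2 above.

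Of 20 integrin and adhesion genes, 7 lay below both controls and 0 above, with a median of -0.31 that was -0.80 without knockdown replicate 2. Beside Itgav these were Itga5, Itga6, Itgb1, Itgb8, Ncam1 and Cdh4. Itgb1, the beta 1 subunit that pairs with most alpha subunits, stood at 1572 and 2339 CPM in knockdown cultures, against 3985 and 3161 CPM in controls, and Ncam1, the neural cell adhesion molecule, at 230.2 and 279.7 CPM in knockdown cultures, against 449 and 394 CPM in controls. Of 28 collagen, laminin and fibronectin genes, 9 lay below and 1 above, with a median of -0.22. Col4a1, a basement membrane collagen, stood at 1092 and 897 CPM in knockdown cultures, against 2492 and 1870.2 CPM in controls. Col1a1, fibrillar collagen, stood at 2327 and 1417 CPM in knockdown cultures, against 4703 and 1974 CPM in controls, and there control replicate 1 was far above control replicate 2. Col18a1, the collagen that yields endostatin, was the 1 above, at 172 and 100.0 CPM in knockdown cultures, against 68.0 and 61.8 CPM in controls. Without control replicate 1 the collagen median was -0.09, without knockdown replicate 1 it was -0.77, and without control replicate 2 it was -0.61. Set against control replicate 1 alone, 19 of the 28 were lower in both knockdown libraries, as were 4867 of all 17609 genes tested.

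Of 22 matrix proteases and inhibitors, 5 lay below and 1 above, with a median of -0.33. Timp2, a metalloprotease inhibitor, stood at 443 and 1302 CPM in knockdown cultures, against 2698 and 2243 CPM in controls, and Timp3, the matrix-bound inhibitor, at 957 and 1196 CPM in knockdown cultures, against 2349 and 2132 CPM in controls. The 1 above was Mmp15, a membrane-type metalloprotease, at 76.5 and 34.2 CPM in knockdown cultures, against 23.2 and 26.2 CPM in controls. Among 28 tested axon guidance genes, 8 lay below and 2 above, with a median of -0.13. The repellent Sema3a stood at 14.8 and 37.6 CPM in knockdown cultures, against 70.5 and 64.8 CPM in controls, and its receptor subunit Nrp1 at 95.0 and 60.7 CPM in knockdown cultures, against 153 and 147 CPM in controls. Sema4d stood above both controls at 25.1 and 14.8 CPM in knockdown cultures, against 8.93 and 8.47 CPM in controls. Among 25 Wnt genes, 7 lay below and 2 above, with a median of -0.15, the receptor Fzd7 at 119 and 131 CPM in knockdown cultures, against 263 and 291 CPM in controls and the ligand Wnt7b at 4.58 and 5.21 CPM in knockdown cultures, against 1.50 and 2.11 CPM in controls. Without control replicate 1 the medians of these 3 lists were -0.06, 0.01 and 0.11, and without knockdown replicate 1 they were -0.43, -0.58 and -0.51. Without knockdown replicate 2 the first was -0.62 and the second 0.00, and without control replicate 2 the axon guidance and Wnt medians were -0.30 and -0.40.

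Markers of fibroblast, meningeal and mural cells also had a lower median. They share Col1a1, Col1a2 and Col3a1 with the collagen list and Dcn and Cspg4 with the proteoglycan list, so the lists are not independent. Of 22 such markers 19 were tested, 5 lay below both controls (26.3%, against 16.5% over all genes) and 1 above, and the median was -0.62. Their summed level was 6534 and 10772 CPM in knockdown cultures, against 19618 and 12098 CPM in controls. Acta2, smooth muscle actin, stood at 1711 and 3836 CPM in knockdown cultures, against 6779 and 4424 CPM in controls, and Tagln, an actin-binding protein of smooth muscle, at 965 and 3695 CPM in knockdown cultures, against 4266 and 3692 CPM in controls, where the groups overlapped. Without control replicate 1 the median of the markers was -0.15, without knockdown replicate 2 it was -0.35, and without control replicate 2 it was -0.97. The markers differed widely in level: Lum was near 0 (1.18 and 0.583 CPM in knockdown cultures, 1.27 and 0.961 CPM in controls), far below Acta2 and Tagln. The markers' part in the lower matrix, integrin and contractile genes was not tested.

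Interferon-stimulated genes leaned higher in knockdown cultures. Of 33 genes 30 were tested, 18 lay above both controls and 1 below, and 7 had an edgeR unadjusted p under 0.05. The median was 0.85, against 0.03 over all genes. Rsad2 was the member that DESeq2 called. Ifi27, a mitochondrial interferon-induced protein, stood at 139 and 96.8 CPM in knockdown cultures, against 62.5 and 89.4 CPM in controls, and Bst2, the virus tether tetherin, at 72.2 and 52.1 CPM in knockdown cultures, against 36.6 and 41.9 CPM in controls. Ifit1, which binds foreign RNA caps, stood at 48.0 and 12.4 CPM in knockdown cultures, against 6.91 and 11.7 CPM in controls, and Oasl2, an oligoadenylate synthetase-like protein, at 44.9 and 8.67 CPM in knockdown cultures, against 7.24 and 6.75 CPM in controls. Most of the height was in replicate 1: the summed list stood at 920.3 and 533.6 CPM in knockdown cultures, against 506.6 and 437 CPM in controls. Without knockdown replicate 1 the median was 0.34, and under the other omissions it lay between 0.76 and 1.06. In the antigen presentation list of 18 genes the median was 0.25 (0.76 without control replicate 1 and 0.14 without control replicate 2), with 5 above and 1 below, H2-K1 at 296 and 248 CPM in knockdown cultures, against 226 and 171 CPM in controls and the class I regulator Nlrc5 at 13.5 and 4.42 CPM in knockdown cultures, against 3.50 and 2.11 CPM in controls.

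Genes of astrocyte function were uneven. Of 25 tested members, 9 lay above both controls and 1 below, while the median over the list was -0.14, on the other side of 0. The log2 change was above 0 at 11 of the 25, against 9214 of all 17609 genes tested. Apart from Aqp4, the members named here are all among the 9 above, so they do not stand for the list. Aldoc, the brain aldolase of glycolysis, stood at 64.2 and 27.9 CPM in knockdown cultures, against 15.5 and 8.18 CPM in controls (log2 1.96, DESeq2 adjusted p = 0.0827). Kcnj10, the potassium channel Kir4.1, stood at 134 and 186 CPM in knockdown cultures, against 96.9 and 59.7 CPM in controls, and Mlc1, a membrane protein of astrocyte endfeet, at 231 and 142 CPM in knockdown cultures, against 103 and 94.8 CPM in controls. Aldh1l1, a folate enzyme used as a pan-astrocyte marker, stood at 192 and 173 CPM in knockdown cultures, against 140.2 and 82.8 CPM in controls. Glul, glutamine synthetase, stood at 407 and 267 CPM in knockdown cultures, against 263 and 188 CPM in controls. Gpc4, a glypican that promotes synapses, and Apoe, the lipid carrier, had the most reads, Gpc4 at 663 and 506 CPM in knockdown cultures, against 502 and 339 CPM in controls and Apoe at 452 and 456 CPM in knockdown cultures, against 420.2 and 293 CPM in controls. Aqp4, the water channel of endfeet, was the 1 below, at 157 and 178 CPM in knockdown cultures, against 344 and 181 CPM in controls, where knockdown replicate 2 nearly met control replicate 2. Without control replicate 1 the median of the list was 0.50, and it was -0.27 without knockdown replicate 2 and -0.26 without control replicate 2. With transcript length offsets the median was 0.02.

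Most reactive astrocyte genes overlapped between the groups, as did 12000 of all 17609 genes tested. Of 13 pan-reactive genes, 0 lay above and 0 below both controls. Of 12 tested A1-type genes, 1 lay above (H2-T23) and 2 below (Fbln5 and Amigo2), and 2 had an edgeR unadjusted p under 0.05. Of 11 tested A2-type genes, 1 lay above (Cd14) and 0 below. Gfap, the filament protein that rises in reactive astrocytes, stood at 448 and 344 CPM in knockdown cultures, against 420.0 and 239 CPM in controls. Lcn2, a secreted iron-siderophore carrier, stood at 161 and 1.82 CPM in knockdown cultures, against 85.9 and 0 CPM in controls, so that replicate 1 was high and replicate 2 low or at 0 in both groups. Cd44, the hyaluronan receptor, stood at 509.7 and 987 CPM in knockdown cultures, against 913 and 1301 CPM in controls. The medians of the pan-reactive, A1-type and A2-type lists were 0.18, -0.04 and -0.10, and each changed sign when some 1 library was left out. C3, the complement protein used as a mark of A1-type cells, stood at 234 and 15.2 CPM in knockdown cultures, against 76.5 and 9.41 CPM in controls. Replicate 1 was far above replicate 2 in both groups, the groups overlapped, and at each replicate number the knockdown library was the higher. In the list of intermediate filament genes, Nes, nestin, stood at 1406 and 2275 CPM in knockdown cultures, against 1481 and 1971 CPM in controls, Synm, synemin, above both controls at 46.9 and 17.8 CPM in knockdown cultures, against 16.8 and 12.8 CPM in controls, and Des, desmin, below both at 1.18 and 2.74 CPM in knockdown cultures, against 8.54 and 6.26 CPM in controls.

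Of 17 tested neural stem and progenitor factors, 7 lay above both controls and 1 below, with a median of 0.31 that stayed between 0.27 and 0.39 when any 1 library was left out. Sox4, a factor of neural precursors, stood at 388 and 338 CPM in knockdown cultures, against 254 and 305 CPM in controls, and Sox9, the glial fate factor, at 129.9 and 118 CPM in knockdown cultures, against 97.9 and 99.2 CPM in controls. Sox11, Sox3, Emx2 and Lhx2 were also above, by log2 changes of 0.22 to 0.74, and Egfr, the growth factor receptor of activated progenitors, was the 1 below, at 104 and 127 CPM in knockdown cultures, against 182 and 192 CPM in controls. Of 13 tested Notch genes, 4 lay above and 1 below, with a median of 0.39 that was -0.09 without knockdown replicate 1, 0.65 without knockdown replicate 2 and 0.17 without control replicate 1. Nrarp, a Notch target that feeds back on the pathway, stood at 5.62 and 4.25 CPM in knockdown cultures, against 1.71 and 1.70 CPM in controls, and Lfng, which glycosylates Notch, at 18.9 and 26.6 CPM in knockdown cultures, against 11.1 and 13.0 CPM in controls. Rbpj, the DNA-binding partner of Notch, was the 1 below, at 67.6 and 47.5 CPM in knockdown cultures, against 123 and 102 CPM in controls, and the receptors Notch1 and Notch2 overlapped, Notch1 at 309 and 138 CPM in knockdown cultures, against 159 and 184 CPM in controls.

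Cell cycle genes separated the knockdown libraries from each other and not from the controls. Of 36 genes, 0 lay above and 0 below both controls in both knockdown libraries, but 35 were below both controls in replicate 1 and 26 were above both in replicate 2. Over all 17609 genes tested, 7108 were below both controls in replicate 1 and 6730 above both in replicate 2. Summed, they stood at 735.5 and 2274 CPM in knockdown cultures, against 1919 and 1924 CPM in controls. Ccnd1, cyclin D1, stood at 315 and 1158 CPM in knockdown cultures, against 969.9 and 1133 CPM in controls, and Pcna, the replication clamp, at 44.3 and 91.7 CPM in knockdown cultures, against 66.4 and 69.5 CPM in controls. The median of -0.17 became -1.26 without knockdown replicate 2 and 0.43 without knockdown replicate 1. Cholesterol synthesis genes had the same pattern, with 22 of 24 below both controls in replicate 1 and 18 above both in replicate 2, and so did glycolysis and hypoxia genes, with 16 and 15 of 22. Hmgcs1, an early enzyme of sterol synthesis, stood at 175 and 314 CPM in knockdown cultures, against 232 and 298 CPM in controls, and Gapdh, of glycolysis, at 1446 and 3546 CPM in knockdown cultures, against 2433 and 2712 CPM in controls.

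The remaining lists held 0 called genes. Of 18 p53 targets, 4 lay above (Bbc3, Bax, Sesn2 and Btg2) and 1 below (Ccng1), with a median of 0.22, and Cdkn1a, the cell cycle inhibitor p21, stood at 1317 and 828 CPM in knockdown cultures, against 739.6 and 914 CPM in controls. Of 17 gp130 and STAT3 signalling genes, 0 lay above and 2 below (the kinases Jak1 and Jak2), with a median of 0.10. Of 28 cytokine and NF-kB genes 3 lay above and 4 below, with a median of -0.06, and of 21 immediate early genes 3 above and 2 below, with a median of 0.12. In the stress list 1 of 19 genes lay above and 2 below. Among cytokines, Csf1, the growth factor of macrophages, stood below both controls at 509 and 759 CPM in knockdown cultures, against 1457 and 906 CPM in controls. Complement genes had a median of 0.61, against 0.03 over all genes, although 0 of 14 lay above both controls and 2 below. Without knockdown replicate 1 that median was -0.73, and without control replicate 2 it was 0.07.

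**Figure D4:**
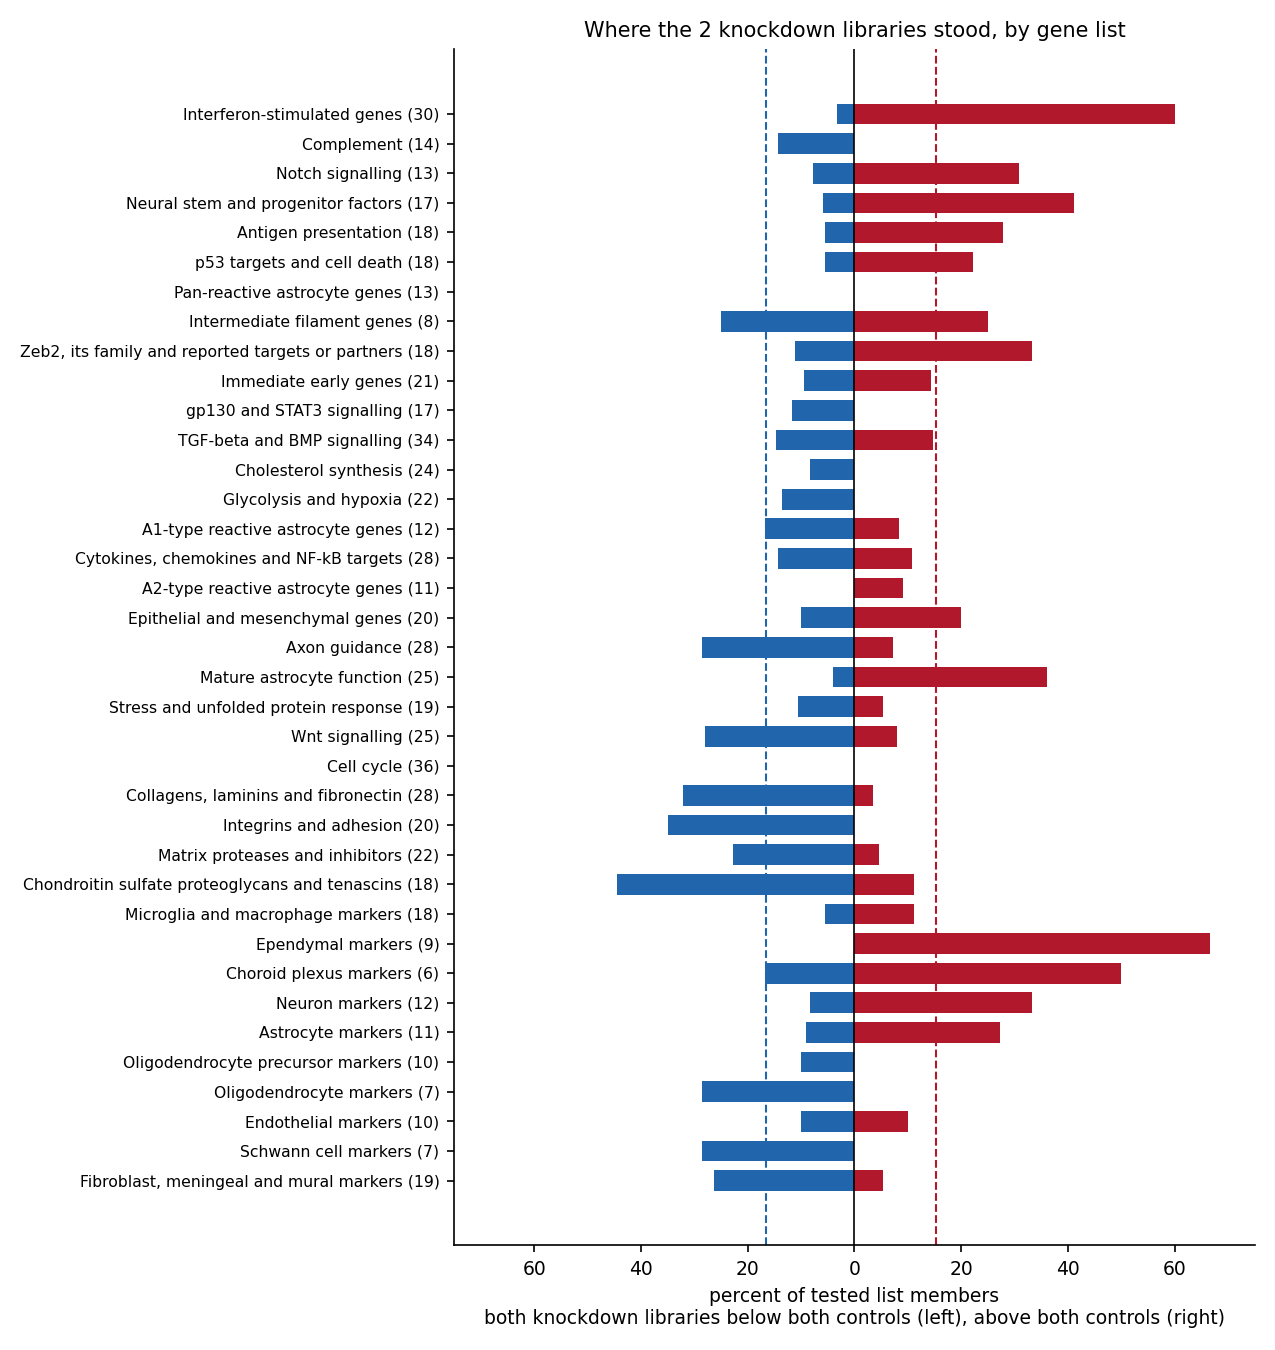
The gene lists and the cell type marker lists, with the share of tested members that lay above both controls or below both controls in both knockdown libraries. The dashed lines mark the share over all 17609 genes, 15.3% above and 16.5% below; 18 of 30 interferon-stimulated genes lay above both controls, and 8 of 18 proteoglycan and tenascin genes below both.

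The astrocyte label was checked against its markers. Of 12 astrocyte markers 11 were tested, and their summed level was 1376 and 1297 CPM in knockdown cultures, against 1501 and 977.3 CPM in controls, with overlap. Gfap, Aqp4 and Aldh1l1, the 3 with most reads, are given above, and all stood over 80 CPM in every library. The fibroblast, meningeal and mural markers given above summed to several times more CPM than the astrocyte markers in every library, although these sums are not per gene length. Microglial markers summed to 258.6 and 156 CPM in knockdown cultures, against 282.5 and 110.9 CPM in controls, led by Lyz2. Of 20 such markers 18 were tested, and P2ry12 and Siglech did not pass the filter on low counts. Above both controls lay 2 and below both 1, with a median of 0.82. It was -0.20 without knockdown replicate 1 and 1.69 without control replicate 1. Neuronal markers summed to 451.8 and 397.8 CPM in knockdown cultures, above 301.9 and 257.8 CPM in controls, and most of this was Stmn2, a tubulin-binding protein, at 346 and 316 CPM in knockdown cultures, against 177 and 174 CPM in controls, while Tubb3 overlapped at 57.8 and 39.7 CPM in knockdown cultures, against 76.3 and 50.4 CPM in controls.

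Ependymal markers were also higher in the knockdown cultures. Of 14 markers 9 were tested, 6 lay above both controls and 0 below, with a median of 0.65, and the sum was 76.1 and 80.8 CPM in knockdown cultures, against 40.4 and 48.3 CPM in controls. Foxj1, the master factor of motile cilia, stood at 55.5 and 62.3 CPM in knockdown cultures, against 29.8 and 35.9 CPM in controls, and Enkur, a sperm and cilium protein, at 4.88 and 6.41 CPM in knockdown cultures, against 2.34 and 2.02 CPM in controls. Oligodendrocyte precursor markers summed to 166.8 and 491.6 CPM in knockdown cultures, against 489.7 and 513 CPM in controls, with replicate 1 low: Olig1 stood at 54.9 and 275 CPM in knockdown cultures, against 169 and 192 CPM in controls. Endothelial markers summed to 151.2 and 212.3 CPM in knockdown cultures, below 263.1 and 287.8 CPM in controls. Of the 10 tested, only 1 lay above both controls and 1 below, and the median was -0.28, or 0.04 without control replicate 1. The 1 below was Cdh5, VE-cadherin, at 57.4 and 112 CPM in knockdown cultures, against 125 and 154 CPM in controls. Mature oligodendrocyte, Schwann cell and choroid plexus markers were low or overlapped, with Mbp, myelin basic protein, at 5.83 and 1.41 CPM in knockdown cultures, against 9.15 and 4.89 CPM in controls. The part of these cell types in the values of the lists was not tested.

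A knockdown of Zeb2os was labelled in a further set of the same kind of cultures (2 knockdown and 2 control libraries, C57BL/6 pups of the same ages), with puromycin from 24 h after infection. It changed neither Zeb2os nor Zeb2 by a call. Zeb2os stood at 3.14 and 4.32 CPM in cultures labelled Zeb2os knockdown, against 5.82 and 3.80 CPM in their controls, and the groups overlapped (log2 -0.36, SE 0.35, edgeR adjusted p = 0.735). The labelled knockdown was not detectable in the counts of its target. Zeb2 stood at 49.95 and 57.5 CPM in cultures labelled Zeb2os knockdown, against 51.7 and 70.2 CPM in their controls (log2 -0.18, SE 0.22, edgeR adjusted p = 0.796). In that set edgeR called 25 genes higher (0.121%) and 14 lower (0.0675%) of 20741.

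Of the 33 genes called by DESeq2 in the Zeb2 knockdown, 32 were tested in the Zeb2os knockdown, and edgeR called 0 of them there. Since edgeR also called 0 of the 33 in the Zeb2 knockdown, this does not set the knockdowns apart. DESeq2 called 551 genes in the Zeb2os knockdown, and these calls were not compared here. The difference between both knockdown effects was tested as an interaction over the 8 culture libraries, each set with its own controls, and 0 of 20685 genes (0%) passed, with 1459 at an unadjusted p under 0.05. For Zeb2 the difference was -2.60 (SE 0.40, edgeR unadjusted p = 8.34e-05, adjusted p = 0.287). For Car2 it was 3.40 (edgeR adjusted p = 0.189), with a log2 change of -0.50 in the Zeb2os knockdown. Interferon genes went in opposite directions in the values of the 2 sets. Rsad2 had a log2 change of -1.30 in the Zeb2os knockdown, against 2.63 in the Zeb2 knockdown (interaction, edgeR adjusted p = 0.405), and the interferon list a median of -0.96, against 0.85, with 5 members lower by a call in the Zeb2os knockdown. Thsd7a had 0.87 in the Zeb2os knockdown, against -1.77 in the Zeb2 knockdown, and Itgav -0.25, against -2.04. The sets differ in time of selection and in table as well as in target, which cannot be told apart.

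**Figure D5:**
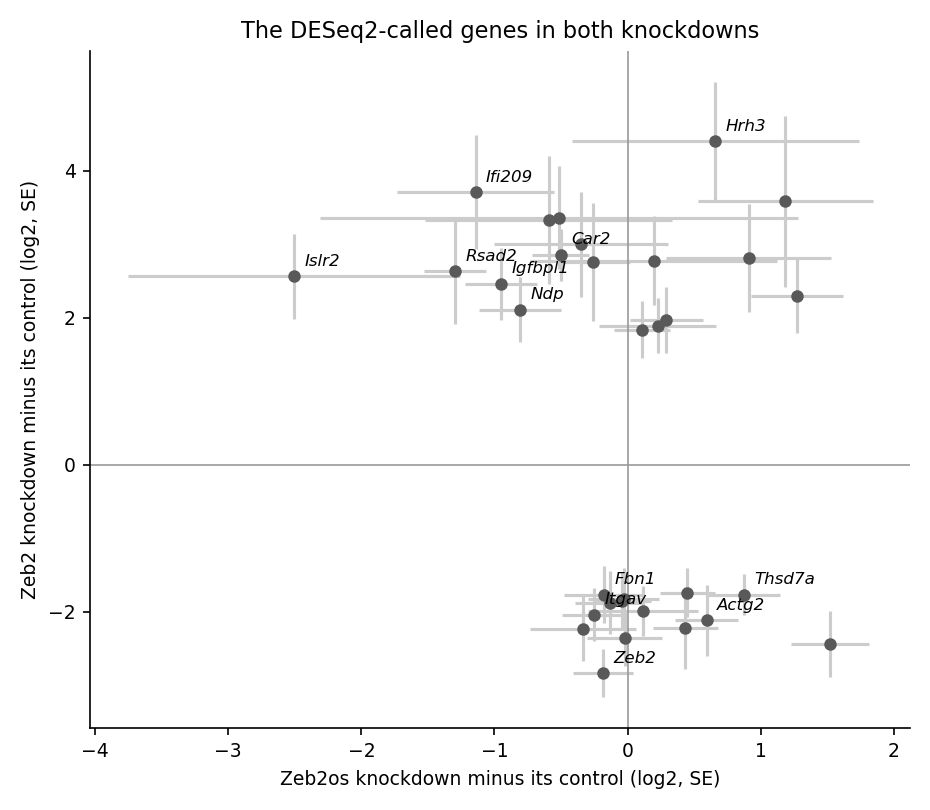
Log2 change in the Zeb2 knockdown (vertical axis) and in the Zeb2os knockdown (horizontal axis) for the 32 genes that DESeq2 called in the Zeb2 knockdown and that were tested in both, with SE bars. Car2 lies at 2.85 in the Zeb2 knockdown and at -0.50 in the Zeb2os knockdown, and Zeb2 at -2.83 and -0.18.

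The same genes were looked up in astrocytes sorted from injured spinal cord, which share no library with the cultures. There, 3 libraries from 7 days after a contusion of 60 kdyn at thoracic level were set against 3 from sham animals (laminectomy alone), each a pool of 3 mice that carried a GFAP-Cre-driven tdTomato reporter, and edgeR called 2398 genes higher (9.87%) and 2042 lower (8.41%) of 24286. Zeb2 stood at 434, 409 and 289 CPM in sorted cells 7 days after injury, against 189, 140.2 and 244 CPM in sham, without overlap, and so rose by 0.98 on the log2 scale (edgeR adjusted p = 0.00279). Of the 17145 genes tested both there and in the Zeb2 set, 2273 rose and 1744 fell. Of the 14 genes lower in the Zeb2 knockdown 12 were tested there, 5 rose, Zeb2 among them, and 0 fell. Adam19 stood at 54.0, 46.9 and 45.7 CPM after injury, against 11.2, 13.0 and 11.7 CPM in sham. Besides Zeb2 the genes that rose were Itgav by 0.75 (edgeR adjusted p = 0.00324), Fbn1 by 1.03 (adjusted p = 0.00393), Scara3 by 1.40 (adjusted p = 0.0211) and Adam19 by 2.03 (adjusted p = 7.67e-06). Of the 19 higher genes 17 were tested, 1 rose and 3 fell. Car2 stood at 18.0, 12.05 and 11.7 CPM after injury, below 57.9, 55.8 and 47.5 CPM in sham, so that it was higher with less Zeb2 in culture and lower after injury. Col9a3 rose by 1.48, and Car2, Gpr50 and Tmem28 had log2 changes of -1.95, -1.52 and -2.02 (edgeR adjusted p = 3.94e-05, 0.0466 and 0.00227).

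Of the lists, the collagens had a median of 2.59 after injury with 24 of 28 members higher, against -0.22 in the knockdown. Cell cycle genes had 2.27 with 35 of 36 higher, mature astrocyte genes -1.60 with 20 of 25 lower, and interferon genes 0.64 with 8 of 29 higher, against 0.85 in the knockdown. Neural stem factors had -0.33 with 3 of 16 higher and 6 lower. Markers of some other cell types also rose in the sorted libraries. Microglia and macrophage markers had a median of 2.66 (16 of 18 higher), and endothelial markers 2.21 (10 of 10). Fibroblast, meningeal and mural markers had 2.13 (10 of 19 higher). Astrocyte markers had -2.05 (9 of 11 lower) and ependymal markers -1.64 (9 of 9 lower). The part of other cell types in the values after injury was not tested. These values are set side by side, and no relation between the culture and injury changes was tested.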

How the data were processed

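The submitters' processing notes name TopHat2 2.1.0, Cufflinks 2.2.1, FastQC and DESeq2 and the build mm10, without saying what each did. The counter, its annotation and its strand setting are not stated (not given in the sources used here). Each deposited table holds raw counts of reads per gene as whole numbers, which the authors had left without scaling. Of 43726 genes, 17609 passed edgeR's filter (minimum count 10). The test of knockdown against control was edgeR's quasi-likelihood F test (edgeR 4.0.16, limma 3.58.1, R 4.3.3, TMM scaling, Benjamini-Hochberg adjustment, threshold 0.05). DESeq2 1.42.0, other scalings and filters, transcript length offsets (chosen after seeing the data) and leaving out each library were alternatives. The common biological coefficient of variation was 0.399. Fits were tested on simulated data. CPM used a prior count of 2 only in log values.

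The members and lists were chosen with earlier results of these data known. Named genes were Zeb2, Zeb2os, called genes with a mean of at least 1 CPM (15 per direction at most), called members of a list or else its 2 with most reads, and 3 markers per cell type. A few of these are not reported here. Lengths matched 94.3% of tested genes.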

Additional observations from a re-analysis of the deposited data

How the results depend on the processing

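The count of 0 genes called by edgeR stayed at 0 with RLE size factors, a stricter filter and transcript length offsets. It was 33 with DESeq2, 142 with no filter on low counts, 2 in the fit of all 8 culture libraries, and 2 to 804 when 1 library was left out. Zeb2's log2 change of -2.83 passed the threshold at -2.82 with DESeq2, -2.82 with no filter and -2.84 in the 8-library fit, and not with RLE size factors, the stricter filter or length offsets (-2.67 with the last). With 1 library left out it ran from -3.11 to -2.60 (edgeR adjusted p 0.0211 to 0.0624, missing the threshold only without control replicate 2). The Zeb2os knockdown count of 39 became 551 with DESeq2, 625 with no filter, and 20 to 4354 when 1 library was left out. The interaction count of 0 became 185 with DESeq2, 393 with no filter, and 0 to 1582 without a library. The count at 7 days, 4440, was 5927 with DESeq2, 3495 in those 2 groups alone, 3132 with the replicate block and 2867 to 5504 when 1 library was left out. With the replicate block, the counts were 80 for Zeb2 (log2 change -2.85), 554 for Zeb2os and 17 for the interaction. All 33 genes called by DESeq2 were called with that block too. Deviations of same-numbered libraries correlated at 0.390, from 2 pairs only and with no label that ties the numbers to a culture, so the libraries were not treated as paired. Of 1206 values for 110 other named genes, 1111 moved by less than 1 SE, and 0 called values changed sign, while 32 of the genes changed sign under at least 1 alternative. Low depth limits the 9 higher genes under 1 CPM in every control. With 2 libraries a group, a missed call does not show that a gene did not differ.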
